A study of Mus musculus and Homo sapiens with 6 samples.

Results

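The genes described here encode the subunits of AP-1, and 10 mouse genes were taken by name: Fos, Fosb, Fosl1 and Fosl2 of the Fos family, Jun, Junb and Jund of the Jun family, and Atf3, Batf and Batf3, which encode further partners. All 10 were found among 21900 protein-coding genes. Every listed peak inside these genes or within 50 kb of them was collected from 4 ATAC-seq libraries of NMuMG cells, an epithelial line from mouse mammary gland. The libraries were made from 25000, 50000, 75000 and 100000 untreated cells of low passage. Each cell number has 1 library, and values therefore stand without a replicate error and cell numbers were not tested against each other. ATAC-seq marks open chromatin through the sites where the Tn5 transposase inserts adapters. Per the labels' protocols, cells grown in serum were detached with trypsin before their nuclei were exposed to the enzyme. NMuMG is a line grown in culture, and the libraries carry no genetic change and no added factor. Another 2 samples, from human MDA-MB-231 cells, were not used here.

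AP-1 is a dimer of proteins that hold together through a leucine zipper and bind DNA through the basic stretch beside it. Fos proteins dimerise with Jun proteins, Jun proteins also pair among themselves, and ATF3 and the BATF proteins join Jun proteins in dimers of other composition. Fos, Fosb, Jun, Junb and Atf3 are immediate early or stress-induced genes that respond within minutes to serum or damage, Fosl1 and Fosl2 follow later, and Jund is transcribed more steadily. Batf and Batf3 are best known from lymphocytes and dendritic cells.

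The deposited lists held 38878, 43832, 41509 and 45530 peaks in order of cell number, each with a whole-number score of 8 or above and with a median score of 15 or 16. Read counts do not come with the lists, so depth is unknown, and scores were ranked only within their own list. The lists carry the tags ds and peakdeck, which the sources used here do not explain. Whether reads were thinned before peaks were called is thus unknown. Thinning would bear on list lengths, scores and the presence of a peak. A score percentile below is the share of peaks of a list with a lower score, with ties split evenly. Gene-end peaks (within 1 kb of either annotated end) were listed in all 4 libraries at 5 of 6 epithelial marker genes. Epcam was the exception with none. They were listed at none of 4 fibroblast and none of 4 endothelial markers, and at 1 of 4 blood markers, Spi1. Over all protein-coding genes the share was 43.9%. Cdh1 and Spi1 had no peak within 1 kb of a transcription start in the reference.

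Around the AP-1 genes, 102 peaks were listed at 25000 cells, 108 at 50000, 108 at 75000 and 111 at 100000. These made up 0.262%, 0.246%, 0.260% and 0.244% of the lists. Merging peaks that overlapped gave 125 regions, 3 of which lay between Atf3 and Batf3 and belong to the windows of both. A peak in all 4 libraries was found in 70 regions (56% of 125, 95% Clopper-Pearson interval 46.8 to 64.9). Another 15 regions had a peak in 3 libraries, 15 in 2 libraries and 25 in 1 library (20%). Over the genome, 46.3% of 55702 merged regions had a peak in all 4 libraries and 26.2% in 1. That genome share also counts regions outside gene windows. In the windows of the 17492 protein-coding genes with an annotated start, the share in all 4 libraries was 79.2% within 1 kb of the start. Farther out it was 48.2% to 50.7%. The intervals cover counting error only, and neighbouring regions of a window are not independent.

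**Figure D1:**
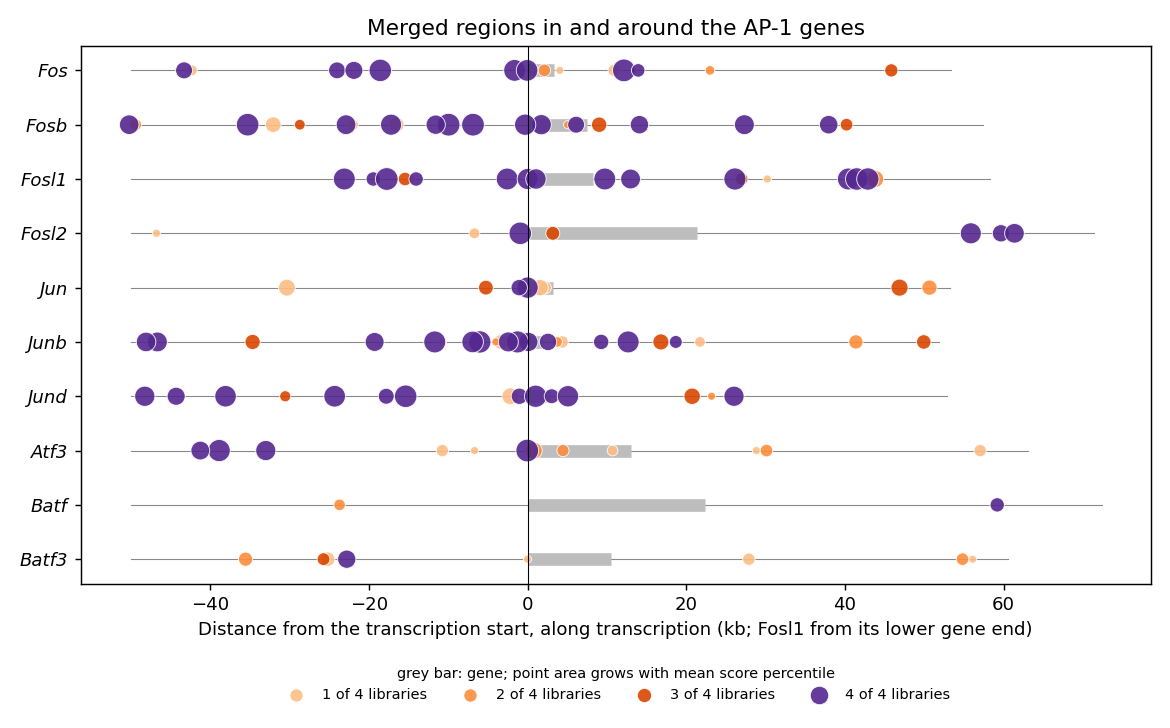
Merged regions in and around the AP-1 genes, plotted by the distance of their centre from the transcription start in kb, along the direction of transcription (Fosl1 from its lower gene end). Colour gives the number of libraries with a peak, point area grows with the mean score percentile, and grey bars are the genes. Regions are densest around Junb (23) and Fosb (21), and Batf has 2.

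Of the 10 genes, 8 had a peak at an annotated gene end (within 1 kb of it) in all 4 libraries, against 43.9% of all protein-coding genes. Batf had none in any library, and Batf3 had 1, at 50000 cells, with the lowest score in the list. Where the reference gives a transcription start, which it does for 9 of the genes (all but Fosl1), 7 had a peak within 1 kb of it in all 4 libraries, against 45.9% of the 17492 protein-coding genes with a start in the table. A peak that covered the start base itself in all 4 libraries was present at 4 of 9 (Fos, Jun, Junb and Atf3), a share close to the 40.7% of all genes. For Junb this rests at 25000 cells on a peak with a score of 8, the lowest in that list. All 10 had at least 1 region found in every library inside the gene or within 50 kb, as did 74.7% of protein-coding genes.

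The promoter sequences of 6 genes are shown because they show 3 of the arrangements in the lists: a peak over the start (Fos, Jun and Atf3), a peak that ended before it (Fosl2), and no peak in most or all libraries (Batf and Batf3). They run from 250 bases before the start to 50 after it, 5′ to 3′ along the gene, and come from RefSeq (GRCm38.p6, the assembly that mm10 names). Capitals mark any match, on either strand, to the 7 motifs searched.
Fos, chr12:85473640-85473939, plus strand: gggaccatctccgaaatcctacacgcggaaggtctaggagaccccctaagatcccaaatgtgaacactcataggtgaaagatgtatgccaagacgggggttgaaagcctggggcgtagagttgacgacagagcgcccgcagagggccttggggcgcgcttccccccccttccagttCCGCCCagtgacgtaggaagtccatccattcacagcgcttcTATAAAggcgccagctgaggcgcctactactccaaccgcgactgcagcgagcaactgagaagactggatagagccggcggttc
Jun, chr4:95052173-95052472, minus strand: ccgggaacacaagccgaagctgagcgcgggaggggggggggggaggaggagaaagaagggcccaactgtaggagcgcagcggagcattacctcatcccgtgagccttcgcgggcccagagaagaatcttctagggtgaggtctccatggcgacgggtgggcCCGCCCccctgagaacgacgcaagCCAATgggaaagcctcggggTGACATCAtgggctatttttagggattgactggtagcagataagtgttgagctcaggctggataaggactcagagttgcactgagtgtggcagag
Atf3, chr1:191183284-191183583, minus strand: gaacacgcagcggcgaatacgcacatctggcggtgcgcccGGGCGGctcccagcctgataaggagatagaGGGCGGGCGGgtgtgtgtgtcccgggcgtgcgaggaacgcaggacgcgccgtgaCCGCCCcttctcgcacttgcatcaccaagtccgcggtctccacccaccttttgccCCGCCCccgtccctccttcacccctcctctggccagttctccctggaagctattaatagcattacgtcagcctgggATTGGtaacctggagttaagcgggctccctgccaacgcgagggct
Fosl2, chr5:32136222-32136521, plus strand: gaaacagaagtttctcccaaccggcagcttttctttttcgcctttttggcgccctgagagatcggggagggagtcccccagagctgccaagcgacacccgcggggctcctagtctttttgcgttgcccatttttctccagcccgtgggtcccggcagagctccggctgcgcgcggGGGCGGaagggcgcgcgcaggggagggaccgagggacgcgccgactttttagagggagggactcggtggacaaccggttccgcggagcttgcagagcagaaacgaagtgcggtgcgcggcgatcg
Batf, chr12:85686470-85686769, plus strand: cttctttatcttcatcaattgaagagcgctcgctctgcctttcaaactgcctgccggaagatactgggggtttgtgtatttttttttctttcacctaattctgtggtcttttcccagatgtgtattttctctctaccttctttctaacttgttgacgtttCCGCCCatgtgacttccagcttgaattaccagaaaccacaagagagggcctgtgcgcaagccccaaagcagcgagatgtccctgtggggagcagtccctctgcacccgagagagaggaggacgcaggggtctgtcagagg
Batf3, chr1:191098164-191098463, plus strand: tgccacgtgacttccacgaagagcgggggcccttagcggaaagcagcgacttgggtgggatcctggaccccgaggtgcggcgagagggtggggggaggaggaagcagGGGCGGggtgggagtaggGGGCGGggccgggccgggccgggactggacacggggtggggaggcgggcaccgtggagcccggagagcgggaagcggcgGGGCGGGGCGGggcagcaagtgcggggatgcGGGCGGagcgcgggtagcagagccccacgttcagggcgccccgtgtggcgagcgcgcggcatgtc

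The 7 motifs were TGACTCA (the AP-1 site), TGACGTCA (the cyclic AMP response element), TGACATCA (the variant site described in the Jun promoter), the CArG box bound by serum response factor, CCAAT (the CCAAT box), TATAAA (the TATA box) and GGGCGG (the GC box), some of whose matches overlap each other. None of the 9 promoters of AP-1 genes in the table held TGACTCA, TGACGTCA or a CArG box in this window. These were found in 4.66%, 2.23% and 1.52% of 21263 promoters of protein-coding genes. TGACATCA stood in 1 of the 9, in Jun, with its first base 45 bases before the start, and in 3.66% of all promoters. TATAAA was found in 2 of 9, 33 bases before the start in Fos and on the annotated start itself in Junb, against 12.6% of all promoters. CCAAT was found in 3 of 9 (Jun, Junb and Atf3) against 38.2%, and the GC box in 7 of 9 (all but Junb and Jund) against 46.2%.

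Promoters with and without a peak overlapped in base composition. The promoter of Fos had 58.7% G and C with 20 CpG dinucleotides, that of Jun 60% with 15, and that of Atf3 64.7% with 27. Fosl2, whose peak stopped upstream, had 64.7% with 32. Batf3, at whose start a peak was listed in 1 library only, had the highest values of the 9, with 75.7% and 34 CpG. Batf had 49.7% and 9 CpG, and Jund had 46.7% and 3. The median over promoters of protein-coding genes was 56.3% with 13 CpG. The annotated start of Jund was thus followed by a peak although its own 300 bases were poor in CpG.

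Among the Fos family, the start of Fos, the prototype immediate early gene, was covered in every library by a peak of 900 to 1100 bp with scores of 37, 46, 37 and 46 from 25000 to 100000 cells. Its percentiles lay between 84.6 and 88.6, and the peak reached from 589 or 639 bp before the start to between 310 and 510 bp after it. Stronger regions lay farther out. The region at chr12:85485601-85486450, 11.7 kb beyond the start on the downstream side of the gene, scored 70, 116, 59 and 74. That at chr12:85454851-85455800, 18.1 kb upstream and with the long non-coding RNA gene Gm38543 as its nearest annotated gene, scored 40, 92, 65 and 63. Both scored above the start region in each library, and at 75000 cells the upstream of these regions was the highest of the window, while in the other 3 libraries it was the downstream one. A region 1.2 kb upstream, at chr12:85471851-85472650, scored 49, 62, 36 and 36, above the start region at 25000 and 50000 cells and below it at the higher cell numbers. The window of Fos held no other protein-coding gene, and 8 of its 14 regions had a peak in all libraries.

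Fosb, an immediate early gene like Fos, showed a similar arrangement in a gene-dense place. Its start region scored 32, 42, 34 and 40, at percentiles of 82.1 to 86.3. The peak lay mainly upstream: it passed the start base by 44 bp at 50000 and 75000 cells and stopped 6 bp short of it at 25000 and 100000 cells, which is why Fosb is not counted among the covered starts. Listed peak edges lie on a regular grid. The lower edges here, 19310001 and 19310051, are neighbouring steps of it, so this exclusion rests on a single step. Upstream, between Fosb and the DNA repair gene Ercc1, the region at chr7:19319551-19320450, 9.5 kb from the start, scored 80, 68, 71 and 86. Its neighbour at chr7:19316501-19317350, 6.5 kb from the start, scored 69, 64, 93 and 72. These regions outranked the Fosb start in every library. The highest score of the window was at 50000 and 100000 cells that of a region inside Ercc1, with 83 and 91. Of the 21 regions in the window, 13 had a peak in all 4 libraries and 9 were nearer to Fosb than to any of its 7 coding neighbours.

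Fosl1, which encodes FRA-1, is long known from invasive mammary cells. The region over its lower annotated end, at chr19:5447301-5448100, scored 21, 45, 43 and 39, and the region that begins 0.7 kb inside the gene, at chr19:5448401-5449100, scored 42, 27, 19 and 39. At 25000 cells the inner region had the higher score, and at 50000 and 75000 cells the outer one, while both had 39 at 100000 cells. A region 2.2 kb outside the lower end scored 45, 51, 39 and 48. No peak lay within 1 kb of the upper end. Of the 18 regions in the window, 13 were found in all libraries, but 3 were nearer to Fosl1 than to its 11 coding neighbours. The highest mean percentile of the window, 96.8, was that of a region at chr19:5429551-5430350 with scores of 56, 77, 83 and 74, nearest to the gene AI837181.

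Fosl2, which encodes FRA-2, had few regions, with 7 in 121 kb. The same region was the highest of the window in every library: that at chr5:32134901-32136200, which ended 272 bp before the start, scored 43, 78, 68 and 71. Its percentile was 90.7 at 25000 cells and between 96.2 and 97.1 in the others. The listed peaks thus stopped short of the promoter sequence printed above in all 4 libraries. At 25000, 50000 and 100000 cells they ended at 32136200, less than a step of the grid of peak edges before its first base, 32136222. No region found in all libraries lay inside the 21369 bp of the gene. The other 3 regions of the window found in all libraries lay together beyond the far end of Fosl2. The strongest, at chr5:32191851-32192800, scored 29, 30, 36 and 46 and had Fosl2 as its nearest coding gene. The others were nearer to Plb1, and the nearest annotated gene to all 3 was Gm9555.

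**Figure D2:**
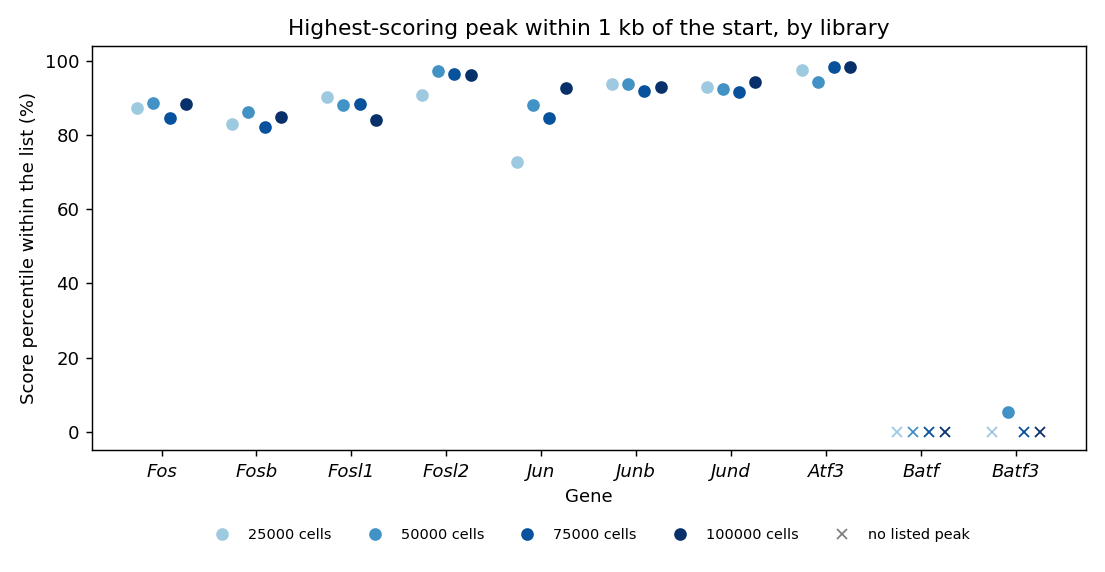
Score percentile within its own list of the highest-scoring peak within 1 kb of the transcription start (Fosl1: of the lower gene end), for each AP-1 gene and library; a cross marks a library with no listed peak. The 8 genes from Fos to Atf3 lie between 72.8 and 98.2, Batf has no peak, and Batf3 has 1 at 5.26.

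In the Jun family, the start of Jun, whose product pairs with all Fos proteins, was covered by a peak of 650 to 750 bp with scores of 24, 45, 37 and 56. The percentile was 72.8 at 25000 cells, the lowest value of any library's highest peak near a start among the 8 genes that had one in every library. In the larger libraries it was 84.6 to 92.6. This region, at chr4:95051851-95052600, was the highest of the Jun window in each library. It also overlapped the end of Junos, a long non-coding RNA gene that lies upstream of Jun. A weaker region 0.8 kb upstream scored 9, 30, 11 and 22. These were the only listed regions of Jun at 25000 cells, where the window held 2 peaks, against 6, 6 and 5 in the larger libraries. Of the 8 regions of the window, the same 2 had a peak in all 4 libraries, the lowest share among those 8 genes, although no other coding gene lies within 50 kb.

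Junb, a partner that also restrains Jun in many settings, had the most regions, 23 in 102 kb, of which 13 were found in all libraries and 6 were nearer to Junb than to its 8 coding neighbours. The region over its start, at chr8:84978201-84979100, scored 8, 40, 38 and 57. At 25000 cells it stood at the lowest score of the list, a percentile of 5.37, whereas in the other libraries it stood between 85.0 and 92.9. The region just upstream, 0.7 kb from the start at chr8:84979401-84980650, scored 50, 60, 50 and 41 and was the higher of both in the 3 smaller libraries. A further upstream region, 2.1 kb from the start, scored 47, 21, 18 and 34, with its highest percentile, 92.6, at 25000 cells. The different order of these adjoining regions at 25000 cells rests on 1 library. At 5.6 kb upstream, a region at chr8:84984351-84985200, nearer to Hook2, scored 42, 55, 62 and 70 and was the highest of the window at 75000 and 100000 cells.

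Jund, the steadily transcribed member, had its peak inside the gene. The region at chr8:70698151-70699350 began 412 bp after the annotated start in every library and scored 48, 55, 49 and 62, at percentiles of 91.5 to 94.3. A weaker region ended 0.6 kb before the start and scored 18, 15, 20 and 9. The 300 bases of its promoter sequence lie in the gap between them and overlapped no peak. The reference table gives 1 start for Jund, and whether transcription begins there in these cells was not measured. In the window of Jund, 11 of 15 regions were found in all libraries. The highest at 25000, 50000 and 75000 cells was at chr8:70682001-70682750, 15 kb upstream and nearest to Lsm4, with scores of 59, 75 and 57, and 60 at 100000 cells, where the peak inside Jund was higher.

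**Figure D3:**
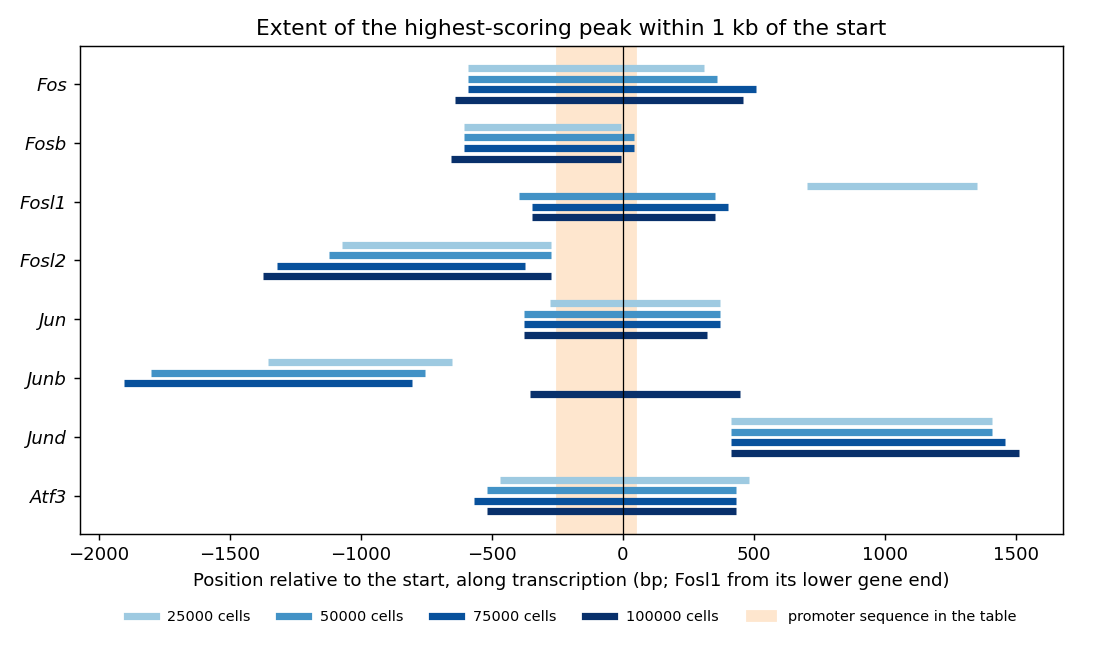
Extent of the highest-scoring peak within 1 kb of the start, in bp along transcription (Fosl1 from its lower gene end), for the 8 AP-1 genes with such a peak in all libraries; 1 bar per library, and the shaded band is the promoter sequence of the table, which holds all of these genes but Fosl1. Peaks straddle the start at Fos, Jun and Atf3, end at least 272 bp before it at Fosl2 and begin 412 bp after it at Jund.

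Of the further partners, Atf3, a stress-induced gene, had the highest mean percentile of a gene-end peak among all 10, at 97.1. The peak straddled the start, from 467 to 567 bp before it to 432 or 482 bp after it, with scores of 67, 62, 82 and 88, and it was the highest of the Atf3 window in every library. The remaining 3 regions of Atf3 with peaks in all libraries were grouped upstream, between 32.5 and 40.7 kb from the start. The strongest, at chr1:191221801-191222600, scored 41, 61, 61 and 49. The outermost, at chr1:191224001-191225150, scored 13, 26, 25 and 27. The nearest annotated gene to it, and to the others of the group, was the long non-coding RNA gene D730003I15Rik. Between this group and the start of Atf3 there were 2 regions, each found in 1 library with a score of 8 or 10.

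Batf and Batf3 stood apart from the other genes. Batf had 2 regions in 122 kb, both nearer to a neighbour. The region found in all libraries scored 12, 9, 10 and 19, beside the gene Flvcr2, and the other scored 9 at 50000 and 10 at 100000 cells. Inside the 22368 bp of Batf no peak was listed. Batf3 had 8 regions. The region found in all 4 libraries, at chr1:191075151-191076100 inside the neighbouring gene Nsl1, scored 17, 19, 17 and 25. The start of Batf3 had a peak of 400 bp with a score of 8 at 50000 cells and none in the other libraries, and no other region lay inside the gene. Since the lists begin at a score of 8, signal below that level at these genes was not seen.

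The windows of most AP-1 genes were rich in listed regions. They held a median of 13 regions, or 12.1 per 100 kb, whereas the windows of all protein-coding genes held a median of 5, or 3.51 per 100 kb. Junb (22.6 per 100 kb), Fosb (19.5), Fosl1 (16.6), Jund (14.6) and Fos (13.5) each had more per 100 kb than 97.1% (Fos) to 99.9% (Junb) of protein-coding genes. Atf3 had 10.6, Jun 7.75, Batf3 7.24 and Fosl2 5.77, and Batf, with 1.63, had more than 29.9% of genes. The windows with the most regions were also those with the most neighbouring genes: the 4 windows with 5 or more other coding genes (Fosb, Fosl1, Junb and Jund) held 15 to 23 regions, of which 22 of 77 were nearest to the AP-1 gene. The 3 windows with no other coding gene (Fos, Fosl2 and Jun) held 7 to 14, of which 24 of 29 were nearest to it. The windows of Atf3, Batf and Batf3, with 1 or 2 other coding genes, held 2 to 12, of which 11 of 22 were nearest to the AP-1 gene; the 3 shared regions count in 2 windows here. Over all windows 57 of 125 regions were nearest to an AP-1 gene. The part of gene density in the counts was not tested.

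**Figure D4:**
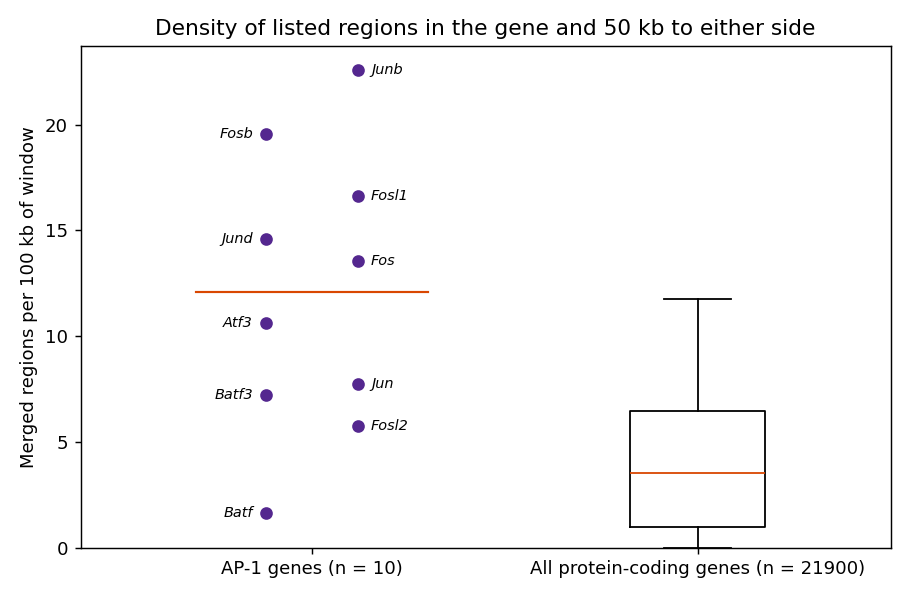
Merged regions per 100 kb in the gene and 50 kb to either side, for the 10 AP-1 genes (points, with their median as a line) and all 21900 protein-coding genes (box: quartiles and median; whiskers: 5th and 95th percentile). The median is 12.1 for the AP-1 genes and 3.51 for all genes, and Batf lies below the median of all genes at 1.63.

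Gene-end peaks of the AP-1 genes that had one in all libraries ranked above the median of such genes. Their mean percentile had a median of 90.2 over 8 genes, with a range of 84.0 to 97.1. The 9613 protein-coding genes that met the same condition had a median of 79.3 and quartiles of 63.0 and 91.1. Fosl2, Junb, Jund and Atf3 lay above the upper quartile, and Fos, Fosb, Fosl1 and Jun below it. Yet the highest region of the window lay within 1 kb of the start in all 4 libraries at 3 genes only (Fosl2, Jun and Atf3). At Fos, Fosb and Fosl1 a region more than 1 kb away was higher in each library, and at Junb and Jund in 3 of 4. Regions within 1 kb of the start had a peak in all libraries in 12 of 14 cases (85.7%, 95% Clopper-Pearson interval 57.2 to 98.2). The share was 14 of 30 (46.7%, 28.3 to 65.7) from 1 to 10 kb, 22 of 37 (59.5%, 42.1 to 75.2) from 10 to 25 kb, and 22 of 44 (50%, 34.6 to 65.4) beyond that. All 4 intervals overlap. In the windows of the 17492 protein-coding genes with a start in the table, the share in the same order of distance was 79.2%, 48.2%, 50.7% and 50.1%, each region being counted once per window that holds it. Each of these lies within the interval of the AP-1 windows at that distance.

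Regions found in 1 library numbered 3 at 25000 cells, 9 at 50000, 5 at 75000 and 8 at 100000. Their scores ran from 8 to 16 with a median of 9. The highest were a region 30 kb upstream of Jun at chr4:95082251-95082850 and a region 1.9 kb upstream of Jund at chr8:70695301-70695850, both scoring 16 at 100000 cells. Next came a region inside Jun with a score of 15 at 50000 cells, and 2 regions upstream of Fosb with a score of 13, at 25000 cells near Ercc1 and at 50000 cells nearer to Fosb. None of them has a replicate check.

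Most genes that act with AP-1 had listed peaks at their ends as well. Of 15 genes for other dimer partners, 11 were so marked in all 4 libraries, with Nfe2l2 (91, 75, 81 and 105) and Nfe2l1 (45, 99, 85 and 103), regulators of the oxidative and proteasome stress responses, at the top. Batf2 and Nrl had none. Jdp2, a repressor whose gene lies between Fos and Batf, scored 32, 28, 38 and 37. Of 12 upstream kinase genes 11 had such a peak, led by Mapk9 (62, 108, 103 and 104), a kinase of Jun, and Mapk7 (41, 79, 60 and 50), while Mapk10, best known from neurons, had none.

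Of 6 serum response regulator genes, 4 had such peaks in each library, led by the co-activator gene Mrtfa (88, 117, 98 and 118) and the ETS factor gene Elk4 (28, 42, 35 and 33). Srf itself had none at its outer ends but a peak within 1 kb of a start in the promoter table in all 4 libraries. All 5 genes for turnover of AP-1 proteins and their messages had one, with Fbxw7 (57, 60, 49 and 63), part of a ubiquitin ligase, and Zfp36 (51, 46, 49 and 52), an RNA-destabilising factor, highest. Of 10 known target genes, 5 had one in all libraries, with the growth factor gene Hbegf (63, 59, 68 and 71) and the urokinase receptor gene Plaur (55, 49, 57 and 46) at the top. The matrix metalloproteinase genes were lower: Mmp9 had none, and Mmp3, Mmp10 and Mmp13 had peaks in 1 or 2 libraries with scores of 8 to 15. These shares, in which either gene end counts, stand beside the 43.9% of all protein-coding genes and were not tested.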

How the data were processed

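For each library the authors deposited a peak list that gives every peak's position and score, a whole number; what the score is computed from is not given in the sources used here. Bowtie 0.12.8, Picard 1.107, bedtools 2.17.0, cutadapt and SAMtools are named with the builds mm10 and hg19, per the submitters' processing notes; the caller's settings and whether reads were shifted to the Tn5 cut are likewise not given. Coordinates are in mm10, 1-based. Peaks were taken when any base lay inside a gene or within 50 kb, and were merged across libraries at an overlap of at least 1 bp. Where a region held several peaks of a library, its highest score was used. Gene ends and starts came from RefSeq tables of GRCm38.p6. Since the starts are annotated, a start used in these cells may differ. The nearest gene was taken among protein-coding genes, by the gap to the gene. The genes and lists were chosen with earlier results of these data known. Regions were named by a rule: the region at the start or gene end, the strongest others found in all libraries, and the highest found in 1 library; further ones were chosen after their values were seen. Shares have exact Clopper-Pearson intervals. Computations used Python 3.11.15, pandas 2.3.3 and scipy 1.17.1, and the functions were tested on simulated data. No statistical test was made, since each cell number has 1 library.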

Additional observations from a re-analysis of the deposited data

How the results depend on the processing

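Of 48 recomputed values, 40 stayed within 1.5 times the reported one. Some of these could not change by construction. The number of AP-1 genes with a gene-end peak in all libraries was 8 under each alternative, except that it was 7 with transcription starts only, where Fosl1 has no entry. The window, counting peaks by their centre, the reciprocal overlap and merging overlapping peaks within a list cannot alter this number. Leaving out a library or widening the gene-end window can only keep or raise it. It could have fallen with lists cut by score or to equal length, or with a gene-end window of 0.5 kb. It was 8 there too. Dropping the peaks that scored below the median of their list lowered the mean number of peaks per library in the windows to 64.2, against 107.2 as reported, and the merged regions to 76, against 125. A window of 10 kb gave 41.5 peaks per library, 49 regions and 29 regions found in all 4 libraries, and a window of 100 kb gave 174.5, 201 and 113, through the length covered. A reciprocal overlap of 50% split the regions into 153. Leaving out each library in turn gave 106 to 109 peaks, 117 to 123 regions, 70 to 77 regions found in all remaining libraries and 8 genes. With all annotated genes in place of coding genes, 41 regions were nearest to an AP-1 gene, against 57. No paired analysis was possible because each cell number has 1 library. Depth is unknown, and signal below a score of 8 is not listed.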
